A study of Mus musculus with 3 samples.

Results

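The mouse genes that encode the STAT proteins were followed across the cell classes of dorsal skin in 3 single-cell libraries. They were chosen by gene family name rather than by their values, with earlier results of these data known. The family members described are Stat2, Stat3, Stat4, Stat5a, Stat5b and Stat6, which are 6 of the 32285 genes of the deposited matrices.

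Each condition had 1 library of full-thickness dorsal skin from wild-type C57BL/6J mice. CON was not irradiated and, per the study's methods, received the ointment vehicle. UV was irradiated every other day for 12 weeks with mixed UVA (0.6 mW/cm2) and UVB (3.5 mW/cm2) and received the same vehicle. Rux had that irradiation, each session followed by topical ointment with 1.5% ruxolitinib, a small-molecule inhibitor of the kinases JAK1 and JAK2. Mice were female and 8 weeks old per the labels. The study's methods give that age for the mice as purchased, so the age at sampling, after the 12 weeks, is not stated. Tissue was taken after the last exposure, and the number of mice behind a library is not given in the sources used here. All 3 libraries go against the stated sex: they held Y-linked Ddx3y at 110 to 121 CPM (counts per 1000000 UMIs, unique molecular identifiers that mark single RNA molecules) and Xist, which is transcribed from an inactive X chromosome, at 0.0921 to 0.119 CPM. After filters 10777 cells of CON, 10231 of UV and 9299 of Rux remained, with medians of 7549, 7661 and 9432 UMIs per cell. Between 28 and 50 cell barcodes were shared by any pair of libraries. With 1 library per condition no test between conditions was possible, and every interval below is an exact 95% interval that covers counting error only, neither the spread between mice nor that between library preparations.

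STAT proteins are latent transcription factors that wait in the cytoplasm. A cytokine receptor with bound JAK kinases phosphorylates them, after which they pair, enter the nucleus and bind DNA. Each member serves a different group of cytokines: STAT2 works with IRF9 in the interferon-stimulated complex ISGF3, STAT3 acts downstream of IL-6 family cytokines that use gp130, STAT4 downstream of IL-12, the close relatives STAT5A and STAT5B downstream of growth hormone, IL-2 and IL-7, and STAT6 downstream of IL-4 and IL-13. Their mRNA level says nothing of phosphorylation, which these data did not measure.

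On mouse build GRCm38 the 6 genes lie at 3 places. Stat4 is on chromosome 1 (51987148 to 52107189, plus strand). Stat6 (127642986 to 127660957) and Stat2 (128270559 to 128292849) are both on the plus strand of chromosome 10. Stat5b (100780731 to 100850724, minus strand), Stat5a (100859351 to 100885169, plus strand) and Stat3 (100885098 to 100939540, minus strand) are neighbours on chromosome 11. Stat5a and Stat3 run towards each other and overlap by 72 bases at their 3' ends, the part of a transcript that this assay reads, and Stat6 overlaps Nab2 on the other strand by 40 bases. The strand setting of the counting is not given in the sources used here, so counts inside these overlaps cannot be assigned with certainty.

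Promoters from RefSeq (250 bases before to 50 after the start, GRCm38.p6) were found for 6 of the 6 genes, 9 promoters in all. They were searched on both strands for the core of the interferon-stimulated response element (GAAA, 2 free bases, GAAA), which ISGF3 binds, and for the site of STAT homodimers (TTC, 3 free bases, GAA). The first was found in 3.44% of all 32851 mouse promoters and, among the members, in that of Stat2 and in the second promoter of Stat4. The second was found in 8.3% of all promoters and in none of the members' 9. A form with 4 free bases between TTC and GAA, the spacing STAT6 favours, occurred in 6.95% of all promoters and, among the members, in that of Stat2, at 210 bases before the start. The 250 bases before these starts are shown because Stat2 is the member with the lowest ratio of Rux over UV in FB-like cells and Stat4 the one most restricted to immune cells; capitals mark the response element core, which begins 222 bases before the start of Stat2 and 97 bases before the second start of Stat4. A match of letters is not a measured binding site.
Stat2, chr10:128270248-128270497, plus strand: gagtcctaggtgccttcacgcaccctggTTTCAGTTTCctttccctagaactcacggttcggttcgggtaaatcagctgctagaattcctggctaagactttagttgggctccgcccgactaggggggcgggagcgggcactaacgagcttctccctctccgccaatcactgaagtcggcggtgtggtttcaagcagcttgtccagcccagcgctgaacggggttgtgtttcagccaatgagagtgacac
Stat4, second start, chr1:52007990-52008239, plus strand: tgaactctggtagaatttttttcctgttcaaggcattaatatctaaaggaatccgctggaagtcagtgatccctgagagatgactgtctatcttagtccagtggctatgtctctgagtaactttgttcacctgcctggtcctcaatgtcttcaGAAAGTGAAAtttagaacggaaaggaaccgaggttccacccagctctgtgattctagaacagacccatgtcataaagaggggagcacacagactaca

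Cells were clustered and the clusters named from marker genes, with the suffix "-like" because the names are rebuilt here. FB-like cells are fibroblasts by their collagen markers, LEC-like and VEC-like lymphatic and blood vessel endothelium, PCY-like pericytes, SCH-like Schwann cells, HS-like cells of the hair shaft and inner root sheath, MYE-like macrophages and other myeloid cells, MC-like mast cells, NEU-like neutrophils and LYM-like lymphocytes. The term keratinocytes covers all clusters of keratin-positive epithelium, HS-like clusters included, most of which lay between several keratinocyte lists and could not be named singly. A class was compared between libraries only with at least 100 cells in both, which left 9 named classes for Rux over UV and 8 for UV over CON. Log2 ratios were computed with 0.5 UMI added to each sum. A ratio is called past the fold when it is at least 0.5 in size at a mean of at least 10 CPM.

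**Figure D1:**
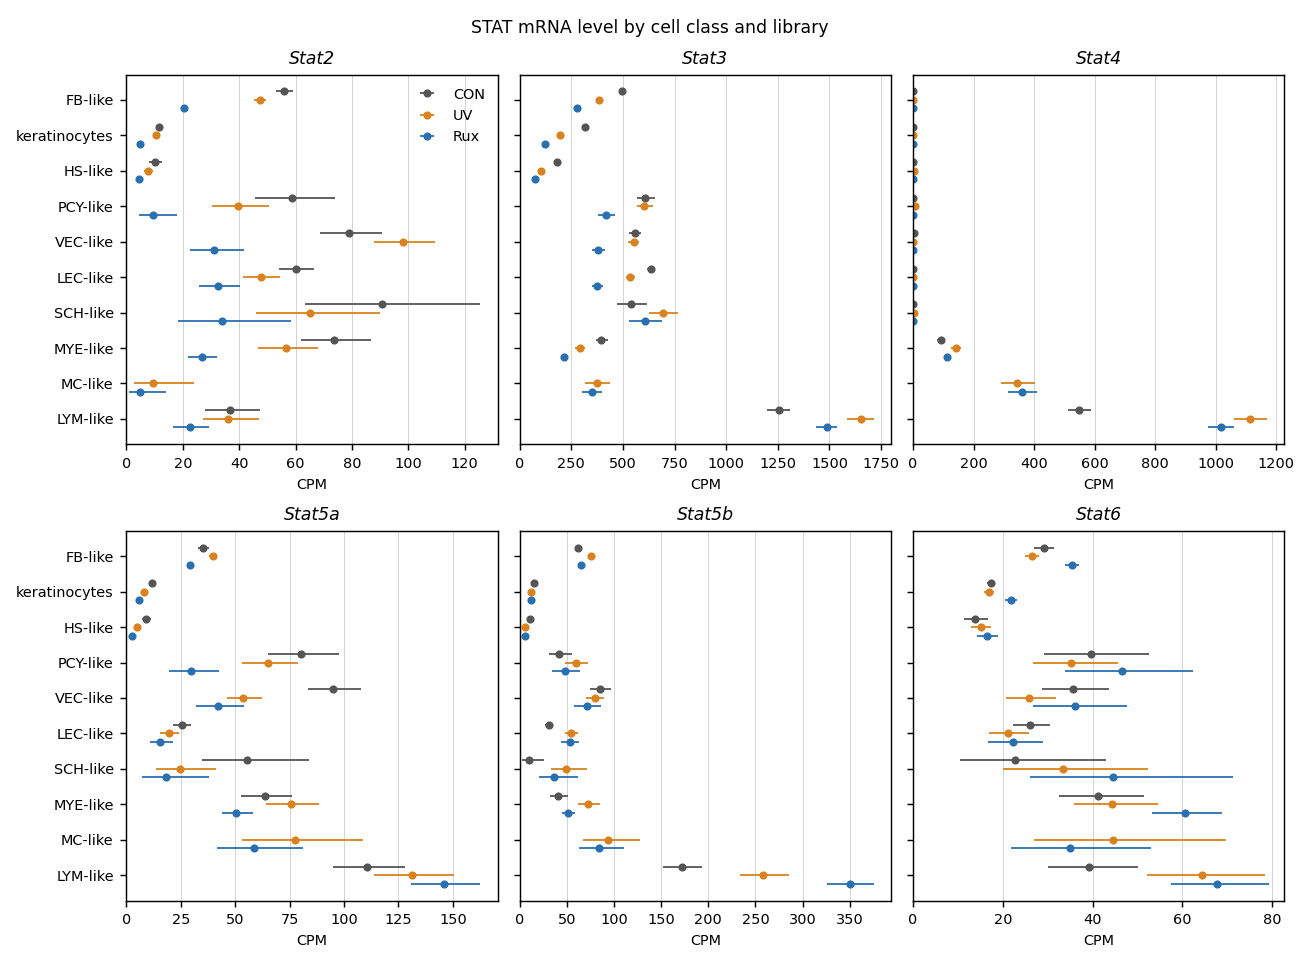
Level of each STAT gene (x axis, CPM on a linear scale from 0) in 9 named classes and the keratinocyte union (y axis) in CON, UV and Rux. Points are summed UMIs per class and library, lines exact 95% Poisson intervals, and classes under 100 cells in a library are left out. Rux lies lowest for Stat2 in every class shown, and Stat4 stands near 0 outside LYM-like, MC-like and MYE-like cells.

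Stat2 was lower in Rux than in UV in every class where it could be compared. In FB-like cells, the largest class, Stat2 stood at 56.1 CPM in CON (95% interval 53.1 to 59.1), 47.4 in UV (45.3 to 49.6) and 20.5 in Rux (19.3 to 21.7), from 1333, 1869 and 1152 UMIs. The intervals of the 3 libraries did not overlap. The log2 ratio of Rux over UV was −1.21 (−1.32 to −1.10), and that of UV over CON −0.24 (−0.34 to −0.14). Of the 8164 genes measured in FB-like cells of UV and Rux, 6.71% were at or below −0.5 and 4.69% at or above 0.5, and among the STAT genes Stat2 alone was past the fold.

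In vessels Stat2 followed the same order between UV and Rux. VEC-like cells held 79.0 CPM in CON, 98.3 in UV and 31.1 in Rux. This class was the one in which Stat2 was higher in UV than in CON, with a log2 ratio of 0.31 (0.06 to 0.57), and Rux over UV was −1.64 (−2.15 to −1.20). It joined cluster 17, led by Vwf and Sele, with 293, 205 and 98 cells, and cluster 23, with Gpihbp1 and Cd36, with 112, 269 and 81. Stat2 was 80.0, 84.4 and 27.1 CPM in the first and 74.6, 117 and 40.2 in the second, so that UV over CON was 0.08 (−0.24 to 0.40) in cluster 17, an interval that holds 0, and 0.63 (0.13 to 1.20) in cluster 23. PCY-like cells, which wrap these vessels, held 58.6, 39.6 and 9.5 CPM, the last from 9 UMIs, and gave the lowest ratio of Rux over UV, −1.99 (−3.25 to −1.05). LEC-like cells held 60.0, 47.6 and 32.5 CPM, and their ratio of −0.55 (−0.94 to −0.17) was the one nearest 0.

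Immune and glial cells had the same direction with wider intervals. Stat2 in MYE-like cells was 73.6 CPM in CON, 56.6 in UV and 26.7 in Rux, a log2 ratio of −1.08 (−1.47 to −0.69) for Rux over UV. This class joined 2 clusters whose shares differed between libraries: cluster 21, led by immunoglobulin genes, C1qa and Ccl22, had 204, 143 and 144 cells, and cluster 22, led by Chil3 and Lyz2, had 72, 97 and 303. Within cluster 21 alone the levels were 88.1, 54.0 and 45.1 CPM and the ratio of Rux over UV was −0.26 (−0.79 to 0.26), an interval that holds 0. Cluster 22 held 39.9, 61.0 and 17.7 CPM. LYM-like cells held 36.6, 36.1 and 22.4 CPM, with a ratio of −0.68 (−1.26 to −0.11), and SCH-like cells 90.7, 65.2 and 34.1 CPM, with a ratio of −0.90 (−1.97 to 0.01).

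In the epithelium Stat2 levels were below those of the fibroblast, vascular and Schwann classes. Keratinocytes held 11.4 CPM in CON, 10.4 in UV and 4.8 in Rux, and the log2 ratio of Rux over UV was −1.13 (−1.37 to −0.89). Cluster 10, led by the barrier genes Cst6 and Klk7, gave −1.80 (−2.42 to −1.25), cluster 8, which holds Lgr5, a hair follicle stem cell gene, −1.19 (−1.98 to −0.52), and cluster 7, led by Itga2 and by genes of dividing cells, −1.56 (−2.43 to −0.84). Cluster 6 was the exception, at 5.5 CPM in UV and 6.6 in Rux with an interval of the ratio from −0.55 to 1.09.

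Counted over the classes with at least 10 UMIs, Stat2 was lower in Rux than in UV in 8 of 8, with a median log2 ratio of −0.99 and intervals wholly below 0 in 7. It was past the fold in each of the 7 classes where it reached 10 CPM, a pattern that 9 of 5331 genes measured in those classes had, or 0.169%. Over single clusters with enough cells it was lower in 20 of 21. Rux was also below CON in 9 of 9 classes, and intervals were below 0 in all 9. UV over CON was smaller: lower in 7 of 8 classes, with 4 intervals below 0 and 1 above, and a median of −0.35. Over single clusters that contrast was mixed, lower in 12 of 20, with 5 intervals below 0 and 5 above. The 3 contrasts share libraries, so they are not separate evidence.

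**Figure D2:**
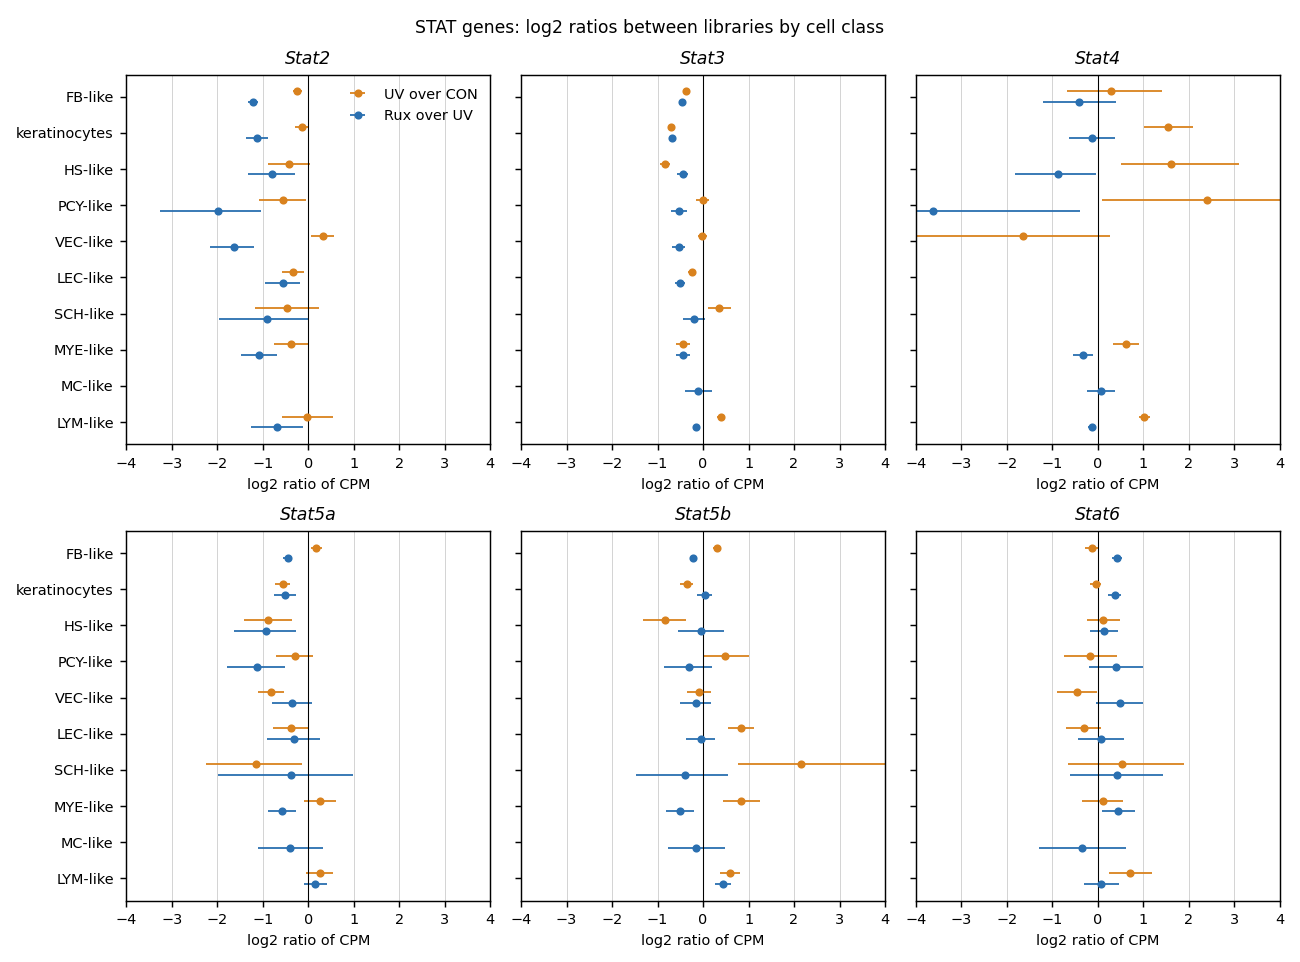
Log2 ratio of CPM (x axis) for UV over CON and Rux over UV in each cell class (y axis), 1 panel per STAT gene. Points are ratios of summed UMIs and lines exact 95% intervals, which are cut where they run past the axis; ratios with fewer than 10 UMIs in both libraries together are not drawn. All blue points of Stat2 and Stat3 lie left of 0, and those of Stat6 lie right of 0 except in MC-like cells.

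Stat3 was also lower in Rux than in UV, by less than Stat2. FB-like cells held 497 CPM in CON (488 to 506), 383 in UV (377 to 389) and 279 in Rux (275 to 283). CON was highest and Rux lowest, with no overlap. The log2 ratio was −0.38 (−0.41 to −0.34) for UV over CON, −0.46 (−0.49 to −0.42) for Rux over UV and −0.83 (−0.87 to −0.80) for Rux over CON. The last was past the fold, as was Stat2 at −1.45, whereas 13.0% of 8344 genes were at or below −0.5 in that contrast and 8.99% at or above 0.5. After each cell was thinned to 2000 UMIs, the share of FB-like cells with a Stat3 UMI was 58.4% in CON (56.7 to 60.1), 47.5% in UV (46.1 to 48.9) and 41.5% in Rux (40.1 to 42.9). Without thinning the shares were 84.6%, 79.0% and 83.8%, and the median depth of a cell was greatest in Rux.

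Between UV and Rux, Stat3 was lower in 9 of 9 classes, with a median of −0.45 and 7 intervals below 0. Of 4834 genes measured in all 9 classes, 109 had this pattern, or 2.25%. The vascular classes were close to one another: PCY-like cells stood at 609, 604 and 420 CPM in CON, UV and Rux, VEC-like cells at 559, 551 and 381, and LEC-like cells at 635, 535 and 376. In the first 2 of these classes CON and UV overlapped and Rux stood below both. The ratio nearest 0 was that of MC-like cells, −0.10 (−0.40 to 0.20), followed by LYM-like cells at −0.15 (−0.23 to −0.08) and SCH-like cells at −0.19 (−0.43 to 0.04). In MYE-like cells Stat3 was 396, 293 and 216 CPM, a ratio of −0.44 for Rux over UV, but within cluster 21 alone it was −0.08 (−0.28 to 0.13).

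Stat3 in keratinocytes was 319 CPM in CON (315 to 322), 196 in UV (192 to 199) and 122 in Rux (118 to 125). Both steps had a log2 ratio near −0.7, −0.70 for UV over CON and −0.68 for Rux over UV. The make-up of this union differed between libraries. KB-like cells (basal keratinocytes) numbered 533, 85 and 108 in CON, UV and Rux, and KS-like cells (suprabasal keratinocytes) 257, 7 and 21. In CON these held 460 and 434 CPM of Stat3. The part of this mixture in the keratinocyte ratios of any member was not tested. The clusters differed in the first step, and in the second 1 of them, cluster 30, an HS-like cluster led by hair keratin genes, was level, with 87.5 CPM in UV and 90.8 in Rux and an interval of the ratio from −0.20 to 0.31. Cluster 6, led by Slc16a7 and Dlx2, held 272, 112 and 76.0 CPM, and cluster 7 held 186, 79.2 and 44.5. In cluster 8 the levels were 359, 452 and 273, and in cluster 10 they were 521, 505 and 241. Thus UV lay far below CON in clusters 6 and 7, above CON in cluster 8 and level with CON in cluster 10, where the interval of the ratio was −0.12 to 0.03, and Rux lay lowest in these 4.

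LYM-like cells had the highest Stat3 level of any class compared, at 1254 CPM in CON (1199 to 1310), 1650 in UV (1587 to 1716) and 1486 in Rux (1437 to 1537). They and SCH-like cells were the classes with an interval of UV over CON above 0. A cluster of 23, 56 and 65 cells led by Gzmc and Xcl1, genes of cytotoxic lymphocytes, reached 2176, 2314 and 2193 CPM of Stat3.

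Within FB-like cells the shares of subclusters differed between libraries, and the Stat3 ratios were other values when these shares were held at those of CON. Whether the shares reflect cell subtypes or a change of cell state was not tested. FB-like cells were split into 13 subclusters. Subcluster 1, led by Socs3, Gadd45g, Zfp36, Socs1 and Irf1, made up 37.8% of FB-like cells in CON, 11.0% in UV and 2.71% in Rux, and its Stat3 level was 579, 574 and 252 CPM. With subclusters weighted as in CON, the log2 ratio of UV over CON was −0.04 rather than −0.38, and it was lower in 8 of 11 subclusters and higher in 3. At subclustering resolutions of 0.3 and 0.8 the weighted ratio was −0.11 and 0.003. A list of 14 immediate-early and stress genes that tissue dissociation is known to raise summed to 21981 CPM in FB-like cells of CON, 10832 in UV and 11874 in Rux. Of the 14, 13 were past the fold downwards in UV over CON, where 11.5% of 8378 genes were. In Rux over UV none was past the fold downwards and 2 upwards, where 6.71% and 4.69% of 8164 genes were. The part of that list in the ratio of UV over CON was not tested. For Rux over UV the weighted ratio of Stat3 was −0.73 rather than −0.46, lower in 11 of 12 subclusters with 10 intervals below 0. The exceptions were subcluster 5, led by Thbs4 and Grm8, at 0.06 (−0.07 to 0.20), and subcluster 4, with Gdf10 and Apoe, at −0.01 (−0.14 to 0.13).

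Stat2 within fibroblast subclusters was lower in Rux than in UV in 12 of 12, with 11 intervals below 0 and a CON-weighted ratio of −1.18. At subclustering resolutions of 0.3 and 0.8 that weighted ratio was −0.87 and −0.94, the latter over 65.8% of FB-like cells of CON. Subcluster 1 held 63.1, 78.2 and 28.0 CPM in CON, UV and Rux. Subcluster 3, led by Pde4c and Plcxd3, held 71.1, 112 and 56.4 CPM, and was the one with the largest excess of UV over CON, 0.65 (0.37 to 0.94). Subcluster 2, led by Dtna and Limch1, had the opposite order in that contrast, with 71.0 CPM in CON and 26.6 in UV. The CON-weighted ratio of UV over CON was 0.11, against −0.24 for the class as a whole. Subcluster 10, led by the acute-phase genes Saa3, Hp and Lcn2, had 0, 22 and 451 cells and could not be compared.

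**Figure D3:**
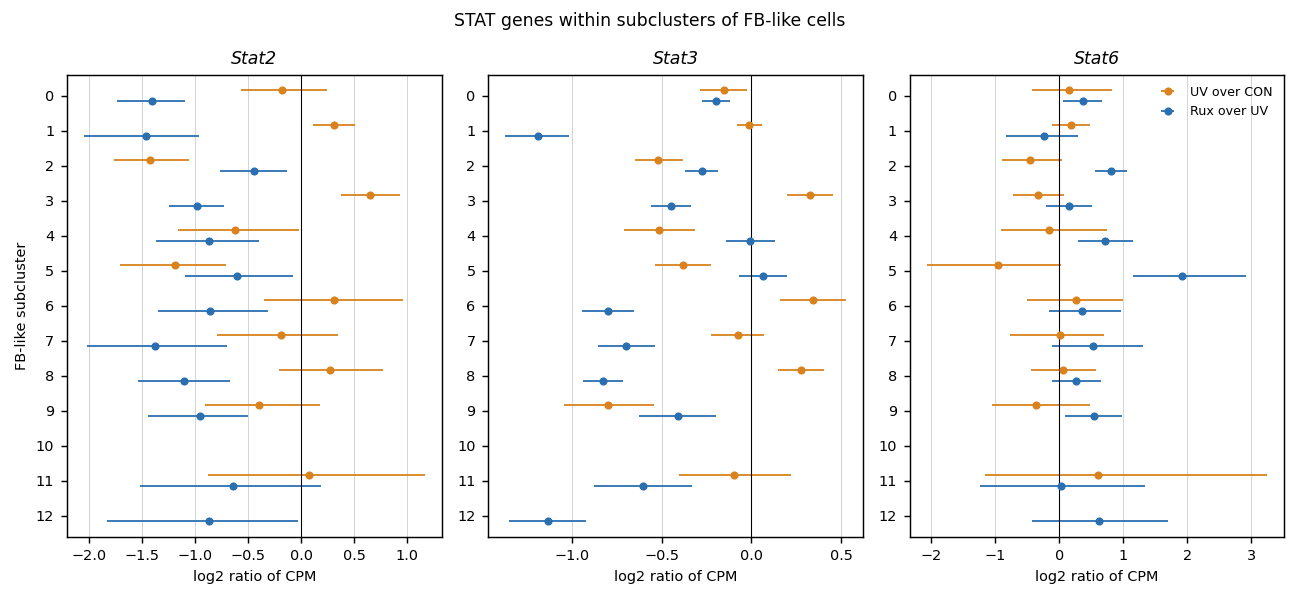
Log2 ratio of CPM (x axis) for UV over CON and Rux over UV within the 13 subclusters of FB-like cells (y axis), for Stat2, Stat3 and Stat6. Lines are exact 95% intervals, and subclusters with fewer than 50 cells in a library compared are blank. Rux over UV lies below 0 in 12 of 12 subclusters for Stat2 and in 11 of 12 for Stat3.

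Stat4 was a gene of immune cells. LYM-like cells held 549 CPM in CON (513 to 587), 1114 in UV (1061 to 1168) and 1017 in Rux (976 to 1059). MC-like cells held 343 CPM in UV and 359 in Rux, and a CON level of 243 rested on 62 cells. MYE-like cells held 92.3, 142 and 113 CPM. NEU-like cells held 335, 226 and 387 CPM, but numbered 50 in CON and 22 in UV. By contrast FB-like cells held 0.55, 0.68 and 0.52 CPM from 13, 27 and 29 UMIs, and LEC-like cells 1 UMI in CON, 0 in UV and 1 in Rux. Taken as 3 UMIs of their total, the count of 0 in LEC-like cells of UV allows up to 0.68 CPM. After thinning, 50.8% of LYM-like cells in CON, 74.7% in UV and 70.1% in Rux had a Stat4 UMI (65.4%, 86.7% and 85.3% unthinned). Of FB-like cells 0.0307% to 0.206% had one (0.324% to 0.577% unthinned). HS-like cells of UV held more than FB-like cells, 2.94 CPM (2.05 to 4.09). Whether these few UMIs outside immune cells are free RNA was not tested.

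The log2 ratio of Stat4 in LYM-like cells was 1.02 (0.90 to 1.14) for UV over CON and −0.13 (−0.22 to −0.04) for Rux over UV. The lymphocytes were not the same mixture in the 3 libraries. A cluster led by Trdc, Cd3g and Trdv4, γδ T cell genes, had 92 cells in CON, 2 in UV and 1 in Rux, and held 185 CPM of Stat4 in CON. Within cluster 15, led by Icos, Themis and Trac, αβ T cell genes, Stat4 stood at 733, 1087 and 930 CPM, so that UV over CON was 0.57 (0.42 to 0.71). In the Gzmc and Xcl1 cluster the levels were 801, 1177 and 1255 CPM. In cluster 21 of the MYE-like class Stat4 was 122, 206 and 220 CPM, 0.76 (0.47 to 1.05) for UV over CON. Cluster 22 held 24.3, 35.1 and 61.0 CPM. The lower level of the MYE-like class in Rux than in UV was thus seen in neither of its clusters, whose shares differed between libraries.

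Stat5a and Stat5b stand head to head with a gap of 8626 bases between them, and they differed in behaviour. Stat5a in FB-like cells was 35.3 CPM in CON, 39.8 in UV and 29.1 in Rux. Its log2 ratio was 0.17 (0.05 to 0.29) for UV over CON and −0.45 (−0.55 to −0.35) for Rux over UV, short of the fold, and it was lower in Rux in 12 of 12 subclusters. With subclusters weighted as in CON, the ratio of UV over CON was −0.08, lower in 6 of 11 subclusters and higher in 5. At subclustering resolutions of 0.3 and 0.8 that weighted ratio was −0.08 and −0.16. Across classes Stat5a was lower in Rux than in UV in 8 of 9, with 4 intervals below 0. The share of all genes with that pattern was not counted. VEC-like cells held 95.1, 53.7 and 42.0 CPM, and for UV over CON this gave −0.82 (−1.11 to −0.54), with −0.50 in cluster 17 and −1.18 in cluster 23. PCY-like cells held 80.0, 65.0 and 29.6 CPM. Keratinocytes held 12.0, 8.1 and 5.7 CPM, and UV over CON was past the fold at −0.56 (−0.73 to −0.40), where 5.25% of 8635 genes were. Cluster 8 went the other way in that contrast, at 0.63 (0.27 to 0.98). LYM-like cells were the class in which Stat5a was not lower, with 111, 131 and 146 CPM and overlapping intervals between UV and Rux.

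Stat5b was higher in UV than in CON in 6 of 8 classes, 5 of them with an interval above 0. The share of all genes with that pattern was not counted. In FB-like cells Stat5b was 61.5, 75.6 and 65.0 CPM, a log2 ratio of 0.30 (0.21 to 0.39) for UV over CON and −0.22 (−0.29 to −0.15) for Rux over UV. As background, 7.72% of 8378 genes were at or above 0.5 in that first contrast and 11.5% at or below −0.5, and none of the STAT genes was past the fold there. LEC-like cells held 30.7, 54.9 and 53.0 CPM, so UV exceeded CON by 0.84 (0.56 to 1.12) and Rux stayed level with UV. MYE-like cells held 40.7, 72.8 and 51.3 CPM. HS-like cells went the other way, with 11.1, 6.1 and 5.9 CPM. So did keratinocytes, with 15.6, 12.1 and 12.4 CPM and a ratio of −0.36 (−0.50 to −0.22) for UV over CON. Their clusters differed: cluster 10 gave −0.49 (−0.86 to −0.14), and the intervals of clusters 6, 7 and 8 held 0. LYM-like cells had the highest Stat5b level of any class compared, 172, 258 and 350 CPM, with Rux over UV at 0.44 (0.26 to 0.62). Within cluster 15 they held 254, 292 and 415 CPM, a ratio of 0.51 (0.31 to 0.71) for Rux over UV and of 0.20 (−0.06 to 0.46) for UV over CON.

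Stat6 was the member that stood higher in Rux. FB-like cells held 29.1 CPM in CON (27.0 to 31.4), 26.5 in UV (24.9 to 28.1) and 35.3 in Rux (33.8 to 36.9). CON and UV overlapped and Rux stood above both, with a log2 ratio of 0.42 (0.31 to 0.53) over UV, short of the fold. Keratinocytes held 17.4, 16.9 and 21.8 CPM, a ratio of 0.37 (0.23 to 0.50), and MYE-like cells 41.2, 44.4 and 60.7 CPM, a ratio of 0.44 (0.10 to 0.81), with 0.57 in cluster 21 alone. The ratio was above 0 in 8 of 9 classes, where 6.83% of 4834 genes reached at least 8, but only 2 of the 9 intervals lay above 0. It was above 0 in 11 of 12 fibroblast subclusters, with 5 intervals above 0, and the share of all genes with that pattern was not counted. The CON-weighted ratio of Stat6 in FB-like cells was 0.22, and 0.37 and 0.47 at subclustering resolutions of 0.3 and 0.8. In LYM-like cells Stat6 was already higher in UV than in CON, with 39.2, 64.3 and 67.7 CPM, but within cluster 15 alone the ratio was 0.42 (−0.16 to 1.04), short of the fold and with an interval that holds 0.

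Ordered by level within a gene, LYM-like cells came first in UV for Stat3, Stat4, Stat5a, Stat5b and Stat6, and for the first 4 of these their interval lay apart from that of the next class. For Stat6 the intervals of LYM-like, MC-like and MYE-like cells overlapped. Stat2 differed: VEC-like cells came first in UV with 98.3 CPM, followed by SCH-like cells with 65.2 and MYE-like cells with 56.6. No neighbours among the first 7 classes had separate intervals. Cluster 31, outside the ranking, held more Stat2 in UV, 119 CPM (104 to 135). Cluster 16, also outside it, held 121 CPM of Stat5a in UV (111 to 131), which overlaps the LYM-like interval of 114 to 151. In CON that cluster held 195 CPM of Stat5a (184 to 207), above LYM-like cells at 111 (94.8 to 128). In UV and in Rux HS-like cells came last for all members except Stat4, whose lowest classes could not be told apart.

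Likeness of pattern was measured by Pearson's r of log2(CPM + 1) over 33 pairs of class and library from 15 classes, pairs that share libraries and cells of 1 skin and are not independent. For Stat2 the 3 most alike genes of 7236 were Gbp3 (r = 0.90), Parp14 (0.90) and Gbp5 (0.88), which are all known as interferon-induced genes. For Stat3 they were Birc2 (0.89), Prdm2 (0.83) and Ankrd12 (0.82). For Stat4 they were Mir142hg (0.97), Dock2 (0.97) and Fyb (0.97), which are genes of blood cells. For Stat5a they were Pik3r1 (0.86), Trim12a (0.85) and Arl6ip5 (0.83). For Stat5b they were AU020206 (0.85), Nr3c1, the glucocorticoid receptor gene (0.83), and its neighbour Stat5a (0.82). For Stat6 they were Btg1 (0.79), Birc3 (0.78) and Aim2 (0.77). Among members the highest other value was 0.72 between Stat3 and Stat5a, and the lowest was −0.15 between Stat2 and Stat4.

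The kinases and brakes of the pathway were read from lists of genes. Of the 4 JAK kinase genes, 2 reached 10 CPM in FB-like cells: Jak1 at 587, 608 and 453 CPM in CON, UV and Rux, and Jak2 at 124, 135 and 131. Neither was past the fold in any contrast. Over all 8164 genes measured in FB-like cells of UV and Rux, 6.71% were past the fold downwards and 4.69% upwards. Of 16 feedback inhibitors 13 were measured there, with a list median of −0.06 beside 0.03 over all genes. Of these 13, 3 were past the fold downwards and none upwards. They were Socs3, which encodes an inhibitor of gp130 signalling and is itself a STAT3 target, at 888, 427 and 131 CPM, Socs1 at 95.5, 48.9 and 17.8 CPM, and Cish, a STAT5 target, at 38.1, 34.9 and 23.4 CPM. Socs3 and Socs1 are among the genes that lead subcluster 1, which made up 11.0% of FB-like cells in UV and 2.71% in Rux. The part of that share in these values was not tested. In keratinocytes Socs3 was 116, 98.7 and 34.4 CPM. In MYE-like cells it had another order, 225, 192 and 280 CPM. Of 21 receptor chains 15 were measured in FB-like cells of UV and Rux, 3 past the fold downwards and 2 upwards. The lower ones were Il31ra, a chain of the IL-31 receptor, at 28.9, 70.0 and 26.2 CPM, Il4ra, the IL-4 receptor chain that acts through STAT6, at 98.9, 143 and 83.5, and Osmr, the oncostatin M receptor chain, at 316, 378 and 254. Those 3 were highest in UV. The higher ones were both chains of the interferon γ receptor, Ifngr1 at 145, 107 and 158 CPM and Ifngr2 at 29.3, 25.5 and 37.0.

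Targets of ISGF3 were lower in Rux than in UV in fibroblasts, blood vessels and myeloid cells, and not in every class. Irf9, the partner of STAT2 and the DNA-reading part of ISGF3, stood at 29.6, 18.6 and 11.6 CPM in FB-like cells. Of the 15 listed ISGF3 targets in the matrices 8 were measured in FB-like cells of UV and Rux. All 8 were below 0, 5 past the fold and none upwards, with a median log2 ratio of −0.66 beside 0.03 over all genes. Of all 8164 genes measured there, 44.5% were below 0, 6.71% past the fold downwards and 4.69% upwards. Ifit1, which binds foreign RNA, was 24.6, 30.3 and 10.0 CPM, and Isg15, a ubiquitin-like modifier, 68.7, 62.2 and 24.3. Between UV and CON 5 of 9 lay below 0 and none was past the fold. Of all 8378 genes in that contrast 62.6% lay below 0, 11.5% were past the fold downwards and 7.72% upwards. In MYE-like cells 9 of 9 measured targets were past the fold downwards in Rux over UV, with a median of −1.20, where 13.6% of 7350 genes were at or below −0.5, and Rsad2, an antiviral enzyme gene, was 1183, 706 and 157 CPM. There the mixture of the 2 myeloid clusters also differed, and its part was not tested. In VEC-like cells 11 of 12 measured targets were past the fold downwards, where 11.7% of 8201 genes were. The summed level of the list, a measure that its most abundant genes dominate, fell from UV to Rux in several classes. In CON, UV and Rux it was 292, 298 and 188 CPM in FB-like, 1244, 1005 and 408 in VEC-like and 2573, 1688 and 647 in MYE-like cells. It was also 522, 318 and 159 in PCY-like cells, 358, 291 and 207 in SCH-like cells and 33.3, 37.9 and 32.2 in keratinocytes. By contrast it was 440, 393 and 401 CPM in LEC-like cells, 38.9, 29.3 and 31.8 in HS-like cells and 271, 159 and 155 in LYM-like cells. In the last 3 classes, LEC-like, HS-like and LYM-like, the list stood at nearly the same level in UV and Rux, and Stat2 itself was lower in Rux in each. Except in FB-like cells and keratinocytes, the summed level was already lower in UV than in CON.

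**Figure D4:**
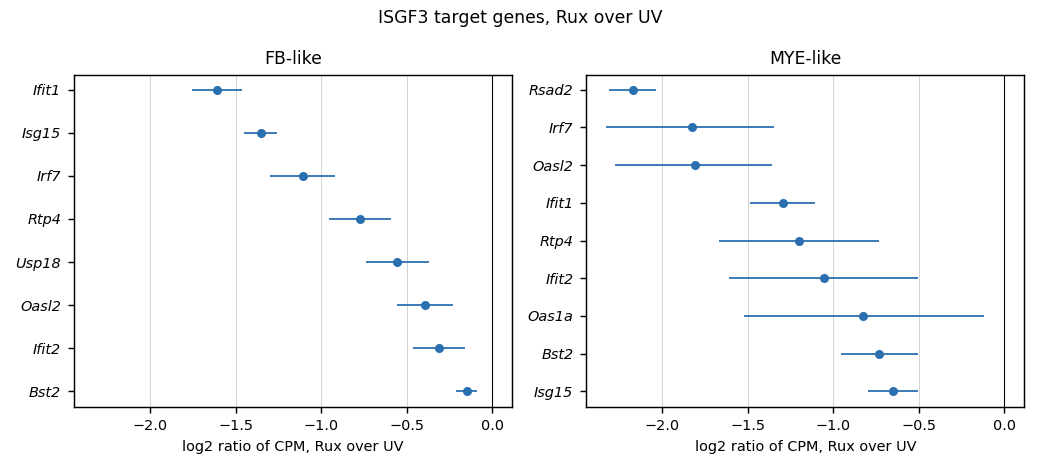
Log2 ratio of CPM for Rux over UV (x axis) of the listed ISGF3 target genes (y axis) that averaged at least 10 CPM, in FB-like and MYE-like cells. Lines are exact 95% intervals, and all points lie below 0.

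Other target lists did not move as 1 group. Of 20 listed STAT3 targets 18 were measured in FB-like cells of UV and Rux, with a median of −0.07. Of these, 5 were past the fold upwards and 4 downwards, where 4.69% and 6.71% of 8164 genes were. The same shares apply to the STAT6 and STAT5 counts that follow. The higher ones included the acute-phase genes Saa3 at 64.0, 83.4 and 753 CPM and Hp at 4.0, 24.1 and 135. Both lead subcluster 10, which had 0, 22 and 451 cells in CON, UV and Rux. The lower ones were Cebpd, a transcription factor of the acute-phase response, at 1484, 651 and 353 CPM, and Socs3, Osmr and Il4ra. Those last 3 were already counted above as feedback inhibitor or receptor chains, because the lists share genes. Of 15 STAT6 targets 5 were measured, 3 of them past the fold downwards and 1 upwards. The higher one was Pparg, the adipocyte regulator, at 8.3, 12.5 and 32.6 CPM. It is among the genes that lead subcluster 6, which made up 3.09%, 1.58% and 12.4% of FB-like cells in CON, UV and Rux. The 3 lower ones were Il4ra, Socs1 and Cish, also already counted above, so they are not separate evidence. Of 10 STAT5 targets 7 were measured, with 2 past the fold downwards, Cish among them, and none upwards. The part of the subcluster shares in these counts of FB-like cells was not tested. In LYM-like cells all 7 STAT4 targets were measured. In UV over CON 4 were past the fold upwards and 1 downwards, where 12.2% of 8512 genes were at or above 0.5 and 17.0% at or below −0.5. In Rux over UV none was, where the shares of 8230 genes were 4.75% and 10.6%. The γδ T cell cluster of CON is part of the first contrast, and its part in these counts was not tested.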

How the data were processed

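Single cells of dorsal skin were sequenced with 10x droplet chemistry, which reads the 3' ends of transcripts. The authors deposited raw UMI counts per gene and cell from Cell Ranger on build mm10. Its version is 6.1.2 in the submitters' processing notes and 7.0.0 in the file headers, and whether intronic reads were counted is not given in the sources used here. Depth was 165337289, 133972374 and 131570327 UMIs in CON, UV and Rux, from 13170, 12411 and 11287 called cells.

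Cells under 200 genes or over 10% mitochondrial UMIs were left out, and the cells with the highest Scrublet scores (0.8% per 1000 cells) were removed as doublets. Seurat 5.3.0 clustered the 3 libraries together on 2000 variable genes and 30 components (resolution 1.5), and FB-like cells again on 20 components (resolution 0.5). A cluster was named from at least 3 detected markers and a score of at least 2. That minimum score and the keratinocyte union were chosen after the data were seen. UMIs were summed per class and library. List members averaging under 10 CPM in the 2 libraries compared were not counted. Named were all members, listed pathway genes, and per member the 3 most alike genes of at least 20 CPM. Intervals were checked on simulated Poisson sums. Such sums hold counting error only, the error the intervals are built for, so the check could not show the effect of spread between cells. Gene coordinates came from GENCODE M21.

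Members and lists were chosen with earlier results of these data known. A seventh gene of the family is not reported here. Each condition had 1 library, so no test was made. The lists were JAK kinases, feedback inhibitors, receptor chains, partner factors, targets of ISGF3, STAT3, STAT4, STAT5 and STAT6, dissociation genes and sex genes. Of 10 partner factors in FB-like cells, 4 were past the fold downwards in UV over CON and 2 in Rux over UV. Over all genes 11.5% and 6.71% were, in that order. Of 4 measured sex genes none was past the fold.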

Additional observations from a re-analysis of the deposited data

Results flagged for a closer look

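For several members the counting intervals lay on opposite sides of 0 in different cell classes under the same contrast. The ends named below are the highest and lowest among classes with an interval apart from 0 and a mean of at least 10 CPM. Each such difference between classes rests on 1 library per condition and was not tested.

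For UV over CON, Stat3 ran from −0.84 in HS-like to 0.40 in LYM-like cells, a difference of 1.23 log2 units, with 4 classes below 0 and 2 above. Stat5a ran from −1.15 (−2.25 to −0.14) in SCH-like to 0.17 (0.05 to 0.29) in FB-like cells, a difference of 1.32. The SCH-like value rests on 14 UMIs in UV and 22 in CON. With fibroblast subclusters weighted as in CON, the FB-like value was −0.08, below 0 like the SCH-like value. Stat6 ran from −0.46 in VEC-like to 0.71 in LYM-like cells, a difference of 1.18. Stat2 ran from −0.56 in PCY-like to 0.31 in VEC-like cells, a difference of 0.88. The intervals that lay apart from 0 in LYM-like and VEC-like cells did not all hold within single clusters: Stat6 was 0.42 (−0.16 to 1.04) in cluster 15 of the LYM-like class, and −0.36 (−0.89 to 0.15) and −0.46 (−1.37 to 0.56) in clusters 17 and 23 of the VEC-like class, and Stat2 was 0.08 (−0.24 to 0.40) in cluster 17. Stat3 in cluster 15 was 0.29 (0.17 to 0.42).

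For Rux over UV, Stat5b ran from −0.51 in MYE-like to 0.44 in LYM-like cells, a difference of 0.94. For Rux over CON, Stat3 ran from −1.48 in KB-like (basal keratinocyte) cells to 0.25 in LYM-like cells, a difference of 1.73. KB-like cells joined clusters 20 and 39, with 461 and 72 cells in CON and 60 and 48 in Rux. The part of this mixture was not tested. Stat5a ran from −1.53 (−3.07 to −0.32) in SCH-like to 0.40 in LYM-like cells, a difference of 1.93. That SCH-like value rests on 7 UMIs in Rux and 22 in CON. HS-like cells, which averaged under 10 CPM, gave −1.81 (−2.50 to −1.18). LYM-like cells of CON held 92 cells of a γδ T cell cluster that had 2 and 1 cells in UV and Rux, and within cluster 15 alone the ratios of Rux over CON were 0.18 for Stat3 and −0.02 for Stat5a.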

How the results depend on the processing

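Alternatives were a strict filter (500 genes, 5% mitochondrial UMIs), no doublet removal, resolution 0.8, equal weight per cell, median-of-ratios scaling, and totals without haemoglobin, keratin and mitochondrial genes. Of 55 member ratios past the fold, all kept their direction with equal weight, the other scaling and the other totals. So did the 53 that could be compared without doublet removal, the 53 at resolution 0.8 and the 50 with the strict filter. Where its shift was recorded, the other scaling moved the ratios of a class by no more than 0.207. That is too little to turn a ratio of at least 0.5, so this setting could not fail. A kept direction does not mean that a ratio stayed past the fold. Stat3 in FB-like cells, UV over CON, moved from −0.38 to −0.41 with the strict filter, −0.31 without doublet removal, −0.43 with equal weight per cell and −0.27 with median-of-ratios scaling, which shifted all ratios of that contrast by 0.10. Rux over CON moved to −0.78 and −0.69 under the last 2, with a shift of 0.14. Stat2, Rux over UV, moved to −1.10 with equal weight. The CON-weighted Stat3 ratio of Rux over UV was −0.58 and −0.48 at subclustering resolutions of 0.3 and 0.8, over subclusters that held 100% and 65.8% of FB-like cells of CON. Without thinning the share of FB-like cells of Rux with a Stat3 UMI was 83.8%. With a minimum of 10 UMIs in place of 10 CPM the median of ISGF3 targets was −0.75, and the number of members past the fold stayed at 0, 1 and 2. Single clusters within the LYM-like, MYE-like and VEC-like classes were examined after seeing the data. No paired analysis was possible because each condition had 1 library. Depth limits Stat2 and Stat5a in SCH-like and PCY-like cells of Rux, where 7 to 28 UMIs were summed.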
